A study of Mus musculus with 2 samples.

Results

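The metallothionein genes Mt1, Mt2 and Mt3 were followed in the scRNA-seq libraries of quiescent (QSC) and activated (ASC) satellite cells, the stem cells of skeletal muscle. They are the 3 rows, of 32285 features in the deposited matrices, whose symbol is Mt1, Mt2 or Mt3, and they were read in barcodes in which 500 or more genes were detected and mitochondrial genes gave no more than 10% of molecules. The genes were selected on their ratio between these libraries, mainly that of Mt3, so the ratios are given as a description. QSCs were sorted from uninjured tibialis anterior (TA) muscle and ASCs from TA muscle 1.5 days after an injection of cardiotoxin (CTX), a venom toxin that destroys muscle fibres. Both groups were 8 weeks old and carried Pax7 CreERT2/+ and Rosa26 mTmG/+, a Pax7-driven inducible recombinase and the reporter that it switches from red to green, so a cell is marked by a past activity of Pax7 and not by its present state. Cells of several mice were pooled for each group, and there was 1 library per group. Group and library cannot be told apart, no difference below has a replicate check, and every interval covers counting error only.

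Metallothioneins are small cytosolic proteins whose many cysteines bind zinc and copper and can trap cadmium and oxidants. Mt1 and Mt2 are made in most tissues and are switched on through the zinc-sensing transcription factor MTF-1, as well as by glucocorticoids, cytokines and oxidative stress, whereas Mt3 is best known from the brain and Mt4 from stratified epithelia. In skeletal muscle Mt1 and Mt2 are commonly counted among the genes that go up in wasting muscle.

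The coding sequences are shown because the 4 genes of the family are close relatives, which bears on whether their molecules can be told apart. They were read from the first-named transcript of each gene in GENCODE M21 (GRCm38), and capitals mark the cysteine codons.
Mt1: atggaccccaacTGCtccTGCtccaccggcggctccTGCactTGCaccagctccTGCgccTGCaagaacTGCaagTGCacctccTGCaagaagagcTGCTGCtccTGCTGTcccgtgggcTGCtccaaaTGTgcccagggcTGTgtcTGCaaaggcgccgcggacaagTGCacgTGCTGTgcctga
Mt2: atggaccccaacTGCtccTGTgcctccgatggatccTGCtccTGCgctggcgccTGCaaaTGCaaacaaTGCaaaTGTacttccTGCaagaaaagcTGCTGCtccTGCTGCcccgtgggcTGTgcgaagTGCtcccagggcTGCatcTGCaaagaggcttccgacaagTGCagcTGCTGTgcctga
Mt3: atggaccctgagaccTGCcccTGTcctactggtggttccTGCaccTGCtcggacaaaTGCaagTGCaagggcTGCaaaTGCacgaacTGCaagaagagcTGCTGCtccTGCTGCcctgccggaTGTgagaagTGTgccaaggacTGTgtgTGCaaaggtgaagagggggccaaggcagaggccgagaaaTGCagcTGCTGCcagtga
Mt4: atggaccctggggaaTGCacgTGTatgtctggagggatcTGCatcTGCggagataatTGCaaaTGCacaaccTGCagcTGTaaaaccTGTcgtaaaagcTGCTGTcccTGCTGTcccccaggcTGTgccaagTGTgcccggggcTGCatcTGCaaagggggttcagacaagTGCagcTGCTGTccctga
Each of the 4 reading frames holds 20 cysteine codons. These are 32.8% of the 61 codons of Mt1 and of Mt2, 29.4% of the 68 codons of Mt3 and 32.3% of the 62 codons of Mt4. Mt1 and Mt2 shared 79.6% of aligned bases, against 66.2% for Mt1 with Mt3 and 67.6% for Mt2 with Mt3. Mt3 is the longest, with 207 coding bases against 186 in Mt1 and Mt2. Over whole transcripts, the longest run of bases shared by a pair of the 3 members was 27, between Mt1 and Mt3, and the longest shared by Mt1 and Mt2 was 20. Reads longer than these runs differ between the genes in at least 1 base, but how the authors' counting treated reads that fit more than 1 place was not examined here.

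The 4 genes lie side by side on the plus strand of chromosome 8 (GRCm38). Mt4 (ENSMUSG00000031757) spans 94137197 to 94139031, Mt3 (ENSMUSG00000031760) 94152607 to 94154146, Mt2 (ENSMUSG00000031762) 94172664 to 94173568 and Mt1 (ENSMUSG00000031765) 94179082 to 94180327. The whole array takes 43131 bases, with 5513 bases between Mt2 and Mt1 and 18517 between Mt3 and Mt2. The nearest protein-coding neighbours are Bbs2, 38268 bases before Mt4, and Nup93, 34236 bases after Mt1. An antisense gene, Gm45774, overlaps Mt2 and held 3 UMIs in the QSC and 7 in the ASC library, against 8770 and 27258 for Mt2.

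The 250 bases before the transcript start are shown next, since Mt1 and Mt2 varied together in these libraries. Mt3, which has few counts, followed them weakly at most. The sequences are those of RefSeq (GRCm38.p6, plus strand), and capitals mark the core of the metal response element that MTF-1 binds, searched as TGCACNC and TGCGCNC on both strands.
Mt1, chr8:94178839-94179088: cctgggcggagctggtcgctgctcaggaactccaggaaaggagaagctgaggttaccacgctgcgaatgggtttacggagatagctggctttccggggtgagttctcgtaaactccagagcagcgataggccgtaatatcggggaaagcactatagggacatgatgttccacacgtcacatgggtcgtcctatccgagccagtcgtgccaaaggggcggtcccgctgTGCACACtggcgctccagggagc
Mt2, chr8:94172368-94172617: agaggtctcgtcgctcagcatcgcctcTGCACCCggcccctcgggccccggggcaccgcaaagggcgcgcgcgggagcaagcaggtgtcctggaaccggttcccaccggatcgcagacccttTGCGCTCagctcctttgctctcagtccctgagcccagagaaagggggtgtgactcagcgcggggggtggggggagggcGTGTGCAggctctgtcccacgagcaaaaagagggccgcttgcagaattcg
Mt3, chr8:94152357-94152606: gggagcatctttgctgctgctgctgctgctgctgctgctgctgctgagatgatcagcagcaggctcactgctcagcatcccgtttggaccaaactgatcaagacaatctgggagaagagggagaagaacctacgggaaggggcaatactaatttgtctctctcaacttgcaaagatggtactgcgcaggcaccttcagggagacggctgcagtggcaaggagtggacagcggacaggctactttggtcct
The Mt2 window held 3 such cores, at 50, 128 and 223 bases before the start, and the Mt1 window held 1, at 23 bases. The Mt3 window held no match to these letters. At least 1 core was present in 21.4% of 32851 windows of the same length and at least 3 in 1.26%. The Mt2 window also held 1 antioxidant response element core (TGACNNNGC), at 79 bases, which 10.2% of windows hold, and the Mt1 window 1 hypoxia response element core (ACGTG), at 79 bases, which 16.6% hold. None of the 3 windows held TATAAA, which 12.4% hold, and no matches overlapped. The windows hang on the RefSeq start, and GENCODE M21 also lists transcripts that start further in, at 122 and 152 bases for Mt1, 46 and 242 bases for Mt2 and 139 bases for Mt3, whose own upstream bases lie partly outside the windows and were not searched. A match to a short core describes the sequence and does not show that a factor binds it.

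The kept data were 516 QSC barcodes with 1162091 UMIs (unique molecular identifiers, each counting 1 captured transcript) and 1468 ASC barcodes with 8895815 UMIs, with medians of 2155 and 3502 UMIs per barcode. The 10 quiescent satellite cell markers summed to 3132 CPM (UMIs scaled to a library total of 1000000) in QSCs and 584 CPM in ASCs, and the 10 activation and myoblast markers to 225 and 1628 CPM. Many barcodes were rich in transcripts of mature fibres. Those with at least 5% of their UMIs from 10 fibre genes are called fibre-high, and they made up 20.2% of QSC barcodes (104) and 64.6% of ASC barcodes (948). In the fibre-high QSC barcodes only 4 of the 10 quiescent markers had a UMI, with a summed level of 97.9 CPM against 4129 CPM in the remaining muscle barcodes, so the label of a satellite cell does not match them. Barcodes below 5% are called fibre-low muscle (370 QSC, 412 ASC) or, in clusters with markers of immune, fibroblast or endothelial cells, non-muscle (42 QSC, 108 ASC). The limit of 5% cuts a range, with 1 QSC and 36 ASC barcodes between 4% and 6%. The libraries shared 4 barcode sequences, of which 2 were kept, and no doublets were removed.

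Mt1 and Mt2 were among the most abundant transcripts of the QSC library and were lower in the ASC library. Mt1 had 11647 UMIs, 10022 CPM (95% Poisson interval 9841 to 10206), in QSCs and 26974 UMIs, 3032 CPM (2996 to 3069), in ASCs, a 3.31-fold lower level. Its log2 ratio of ASC over QSC was -1.72 (exact conditional binomial interval -1.76 to -1.69). Mt2 had 8770 UMIs, 7547 CPM (7390 to 7706), in QSCs and 27258 UMIs, 3064 CPM (3028 to 3101), in ASCs, a log2 ratio of -1.30 (-1.34 to -1.27). Both genes thus took up less of the captured RNA in the injured library. By number of UMIs, Mt1 was the gene of rank 4 and Mt2 that of rank 6 in QSCs, and ranks 57 and 56 in ASCs. The median gene with at least 20 UMIs in each library had a log2 ratio of -0.24, and relative to it Mt1 stood at -1.49 and Mt2 at -1.06. The study's own limit of 1% of mitochondrial UMIs, which kept 86 of 520 QSC and 948 of 1487 ASC barcodes with 500 genes, turned both signs, to 1.43 for Mt1 and 2.12 for Mt2. The median mitochondrial share of QSC barcodes was 4.89% in fibre-low muscle and 0.719% in fibre-high barcodes. The limit of 1% thus left out most fibre-low muscle QSC barcodes and kept most fibre-high ones, so these 2 values do not describe satellite cells.

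Mt3 went the other way. A single UMI was counted in the QSC library, 0.861 CPM (0.0218 to 4.79), against 1446 UMIs in the ASC library, 163 CPM (154 to 171). The log2 ratio was 7.56 (5.08 to 12.87), and 7.80 once the median gene was subtracted, and the width of the interval comes from the single QSC molecule. Over every deposited barcode there were 5 UMIs in QSCs, 3 of them in 1 barcode left out for its mitochondrial share, and the log2 ratio was 5.46. The paralog Mt4 had 0 UMIs in QSCs and 64 in ASCs, 7.19 CPM (5.54 to 9.19), which is at least 2.79-fold higher with the 0 set to 3 counts. Over all kept barcodes, Mt1 and Mt2 were thus lower in ASCs and Mt3 and Mt4 higher. This split did not hold in fibre-high barcodes, where Mt1 and Mt2 were higher in ASCs, as was Mt3. Mt4 had 0 UMIs in QSCs and 50 in ASCs there, and its log2 interval, with a lower limit of -0.12, includes no difference.

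These ratios changed when fibre-rich barcodes were read on their own. In fibre-low muscle barcodes Mt1 was 12920 CPM (12679 to 13164) in QSCs and 2699 CPM (2655 to 2744) in ASCs, a log2 ratio of -2.26 (-2.30 to -2.22). Mt2 was 10002 CPM (9790 to 10217) there and 3057 CPM (3010 to 3104) in ASCs, a log2 ratio of -1.71 (-1.75 to -1.67). In fibre-high barcodes the sign turned.

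Fibre-high barcodes of the QSC library had 277 Mt1 UMIs, 1291 CPM (1144 to 1453), and those of the ASC library 12199, 3997 CPM (3927 to 4069), a log2 ratio of 1.63 (1.46 to 1.81). Mt2 had 136 UMIs, 634 CPM (532 to 750), in QSCs and 10833 UMIs, 3550 CPM (3483 to 3617), in ASCs, a log2 ratio of 2.48 (2.24 to 2.74). Mt1 was therefore 3.1-fold and Mt2 5.6-fold higher in the ASC library in these barcodes. Different clusters made up the class in each library: cluster 8 held 92 of the 104 QSC barcodes, while clusters 0, 3, 5 and 6 held 368, 206, 192 and 105 of the 948 in ASCs. Whether the same kind of fibre fragment was compared cannot be told from these barcodes. With the limit at 2% instead of 5% the log2 ratios of this class were -0.76 for Mt1 and -0.41 for Mt2, because 67 QSC barcodes with 2% to 3.5% of fibre transcripts, at 13329 CPM of Mt1, then joined it.

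Mt3 was concentrated in the fibre-high barcodes of the ASC library. They held 81.8% of its ASC UMIs with 34.3% of all UMIs, against 45.2% of Mt1 and 39.7% of Mt2. Mt3 was at 388 CPM (366 to 410, 1183 UMIs) in fibre-high and at 44.5 CPM (39 to 50.6, 234 UMIs) in fibre-low muscle barcodes of ASCs, a log2 ratio of 3.12 (2.92 to 3.33). The same contrast within ASCs gave 0.57 for Mt1 and 0.22 for Mt2, and within QSCs -3.32 for Mt1 and -3.98 for Mt2. In the QSC library no Mt3 UMI was found in the 104 fibre-high barcodes, so the ASC level was at least 27.7-fold higher with the 0 set to 3 counts.

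**Figure D1:**
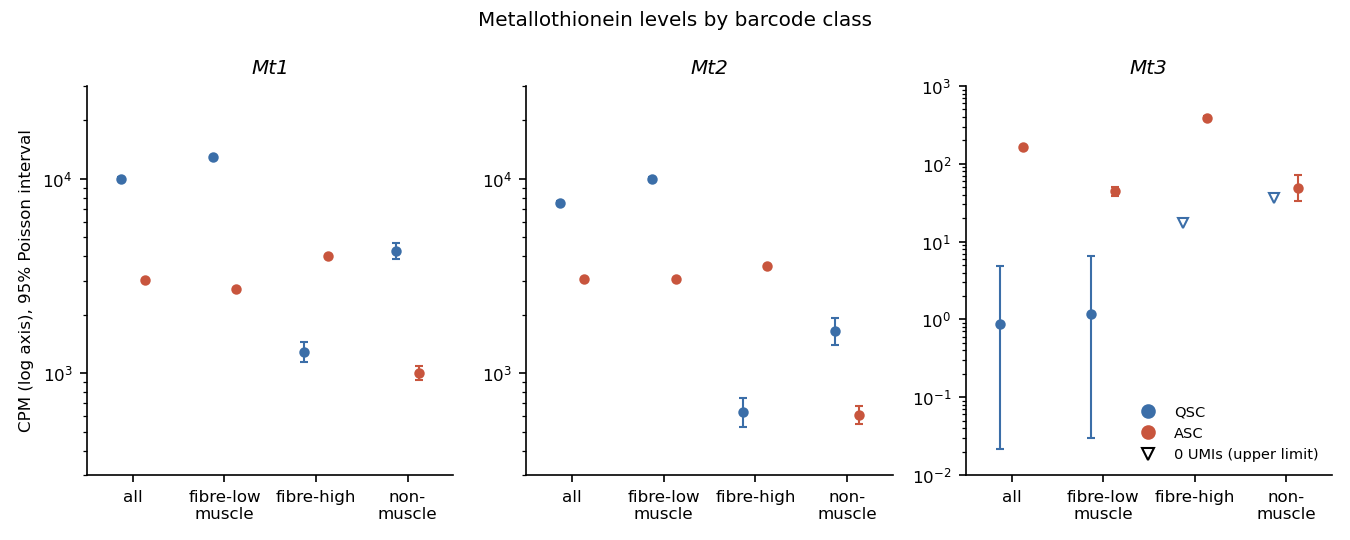
Levels of Mt1, Mt2 and Mt3 in CPM on a log axis in all kept, fibre-low muscle, fibre-high and non-muscle barcodes, for the QSC (blue) and ASC (red) libraries. Points are summed UMIs of 1 library with 95% Poisson intervals, and open triangles mark the upper limit where no UMI was counted. Mt1 and Mt2 are lower in ASCs except in fibre-high barcodes, and Mt3 is highest in fibre-high ASC barcodes, at 388 CPM.

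In non-muscle barcodes Mt1 was 4278 CPM (3884 to 4701) in QSCs and 1002 CPM (922 to 1086) in ASCs, and Mt2 1644 CPM (1403 to 1914) and 610 CPM (549 to 677). Both were lower in ASCs, by log2 ratios of -2.09 and -1.43, as in fibre-low muscle barcodes. The QSC barcodes of this class were mainly fibroblast-like (cluster 11, 17 barcodes) and macrophage-like (cluster 7, 16 barcodes) and the ASC barcodes macrophage-like (83 of cluster 7) and neutrophil-like (19 of cluster 10), so the makeup of the class differed.

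How the levels followed the share of fibre transcripts was read in steps of that share. Mt1 in the QSC library stood at 12784 and 13329 CPM in barcodes with 1% to 2% and 2% to 3.5% of fibre transcripts, and at 1376, 1181 and 1353 CPM from 10% to 15%, 15% to 20% and above 20%. There was a drop between these groups and no slope within them, since the 3 upper intervals overlap. In the ASC library Mt1 stayed between 2659 and 4443 CPM in every step with at least 20 barcodes. Mt2 in ASCs was highest at 5% to 10%, with 5055 CPM (4817 to 5301), and was 2831 CPM (2643 to 3029) above 20%.

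Mt3 did not simply follow fibre content. In ASCs it was 37.7 CPM (31.6 to 44.6) at 1% to 2% of fibre transcripts and 59 CPM (47.6 to 72.4) at 2% to 3.5%. It reached 522 CPM (448 to 606) at 5% to 10% and 572 CPM (530 to 617) at 10% to 15%, and was 240 CPM (213 to 269) at 15% to 20% and 97.4 CPM (65.2 to 140) above 20%. The barcodes richest in fibre transcripts were thus not the richest in Mt3. Mt4 was highest at 5% to 10%, with 50.5 CPM (29.4 to 80.8).

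**Figure D2:**
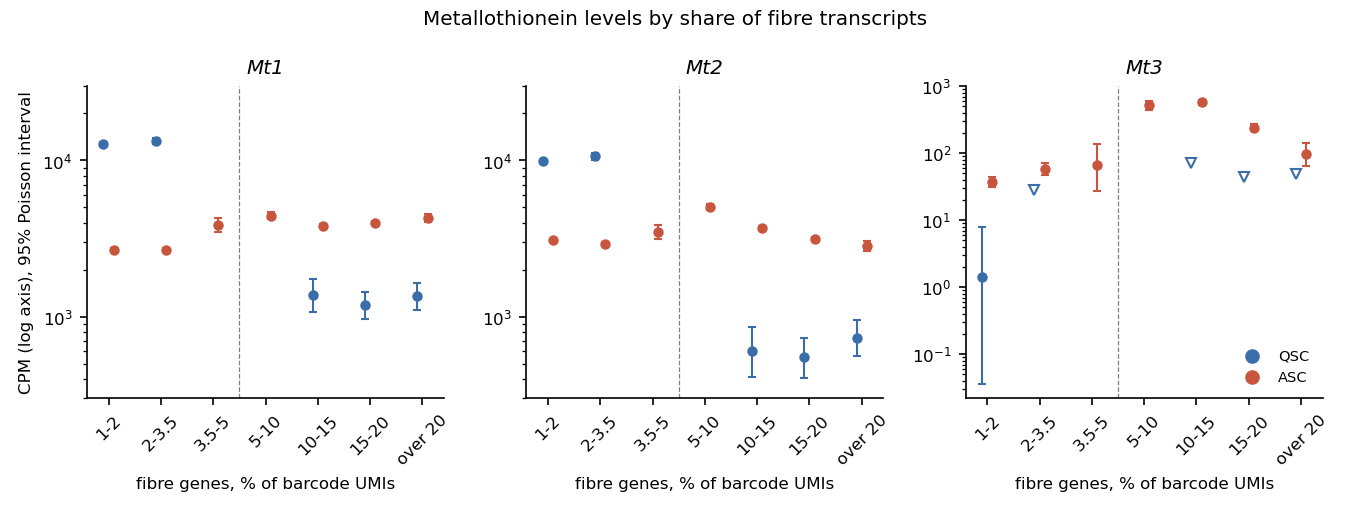
CPM of Mt1, Mt2 and Mt3 on a log axis against the share of a barcode's UMIs that come from the 10 fibre genes, in steps with at least 20 barcodes, for QSC (blue) and ASC (red). Bars are 95% Poisson intervals, open triangles the upper limits of steps without a UMI, and the dashed line the 5% limit. Mt3 in ASCs is highest from 5% to 15% and falls to 97.4 CPM above 20%.

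Clusters were built with the metallothionein genes taken out of the variable genes, and the level of each member was then read by cluster and library. For Mt1 the order in the QSC library began with cluster 2 at 14921 CPM (14606 to 15241), which carries quiescent satellite cell markers such as Pax7, Myf5 and Cd34. Its leading genes included Fosb, Sik1 and Maff, immediate early genes that are known to go up while muscle is digested, and their part in the Mt1 and Mt2 levels was not tested. Clusters 1 and 5 followed at 10784 and 10665 CPM, with overlapping intervals, then cluster 4 at 7704 CPM (7229 to 8203). The cell cycle markers of cluster 4, such as Mki67 and Top2a, were read over both libraries together. They were not read in its 70 QSC barcodes alone. Cluster 7, with macrophage markers, was at 6489 CPM and cluster 3 at 6250 CPM, again overlapping, cluster 0 at 5195 CPM and the fibroblast-like cluster 11 at 3386 CPM. The lowest was the fibre cluster 8, at 1290 CPM (1134 to 1461). Mt2 began and ended in the same clusters, with 11235 CPM in cluster 2 and 650 CPM in cluster 8. In its middle range, macrophage-like cluster 7, at 2173 CPM, lay below cluster 0, at 4443 CPM.

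In the ASC library the highest Mt1 level was in cluster 5, at 5206 CPM (5029 to 5387), then cluster 1, at 4665 CPM (4567 to 4764), and cluster 6, at 4126 CPM (3915 to 4346). Cluster 5 was led by muscle genes such as Myf6 and Mybph and held all 10 fibre markers, and cluster 1 carried the quiescent markers Pax7, Heyl and Vcam1 although 245 of its barcodes came from ASCs and 19 from QSCs. Mt2 had its highest ASC level, 5533 CPM (5427 to 5642), in cluster 1, with cluster 5 next at 4519 CPM (4355 to 4688). Cluster 4, with the cell cycle markers, held 30.7% of the ASC UMIs, and 49 of its 148 ASC barcodes were fibre-high. It was lower, with 1883 CPM of Mt1 and 1848 CPM of Mt2. Cluster 9, led by Mymk and Myog, genes of fusing myocytes, was close to it at 1818 and 1755 CPM, with overlapping intervals for both genes. Macrophage-like cluster 7 was at 976 CPM of Mt1 and 596 CPM of Mt2.

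Within a cluster, Mt1 and Mt2 summed over all barcodes were lower in ASCs in each of the 7 clusters with at least 9 barcodes of both libraries, 0 to 5 and 7. Several of these set unlike classes side by side. In cluster 5 none of the 21 QSC and all 192 ASC barcodes were fibre-high, in cluster 3 none of 10 and 206 of 222, and in cluster 0 9 of 23 and all 368. Kept to 1 class with at least 9 barcodes of both libraries, 5 comparisons were left. Among fibre-low muscle barcodes, Mt1 was at 10784 CPM in QSCs and 4466 CPM in ASCs in cluster 1, a log2 ratio of -1.27 (-1.40 to -1.15), at -2.22 (-2.32 to -2.12) in cluster 4 and at -1.77 (-2.07 to -1.47) in cluster 3. Mt2 had -0.73 in cluster 1 and -1.46 in cluster 3, and in cluster 4 it was at 6911 CPM in QSCs and 1729 CPM in ASCs. The non-muscle barcodes of cluster 7 were at -2.73 for Mt1 and -1.88 for Mt2. In fibre-high barcodes of cluster 0 both genes were higher in ASCs, with Mt1 at 1264 CPM (810 to 1881) in 9 QSC barcodes and 3322 CPM (3225 to 3421) in ASCs, a log2 ratio of 1.39 (0.82 to 2.04), and Mt2 at 2.49 (1.56 to 3.62). In these 5 comparisons the sign thus went with the class of barcode, but cluster 0, with 9 QSC barcodes, was the only fibre-high one. Cluster 8, to which most fibre-high QSC barcodes belong, has only 2 ASC barcodes and allows no such comparison.

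Mt3 was the leading gene of cluster 3, that is, the gene with the largest ratio over the other barcodes among genes detected in at least 25% of the cluster. In ASCs it stood there at 613 CPM (554 to 677). Next to Mt3, this cluster was led by Rrad, a small GTPase gene, Trim63, the gene of the muscle ubiquitin ligase MuRF1, and the stress-response gene Ddit3, and it could not be named from the markers. Cluster 5 followed at 442 CPM (392 to 497) and cluster 6, led by the stretch and injury genes Ankrd1, Xirp1 and Csrp3, at 411 CPM (347 to 485), and these do not differ beyond their intervals. The fibre cluster 0 was lower, at 244 CPM (218 to 272), and cluster 12, with Myh7 and other slow-fibre genes, was at 111 CPM (44.7 to 229) from 7 UMIs. The remaining clusters lay together, at 55.3 CPM (46.8 to 64.9) for cluster 4 and 50.3 CPM (40.6 to 61.6) for cluster 1, followed by cluster 9 with 43 CPM (28.1 to 63) and macrophage-like cluster 7 with 42.2 CPM (26.7 to 63.3). The value of cluster 4 includes 49 fibre-high barcodes among its 148. Cluster 3 held 27% of the Mt3 UMIs of ASCs with 7.15% of all UMIs. Its median depth was 1854 UMIs, which is lower than that of the ASC library as a whole. In QSCs the only Mt3 UMI lay in cluster 2.

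**Figure D3:**
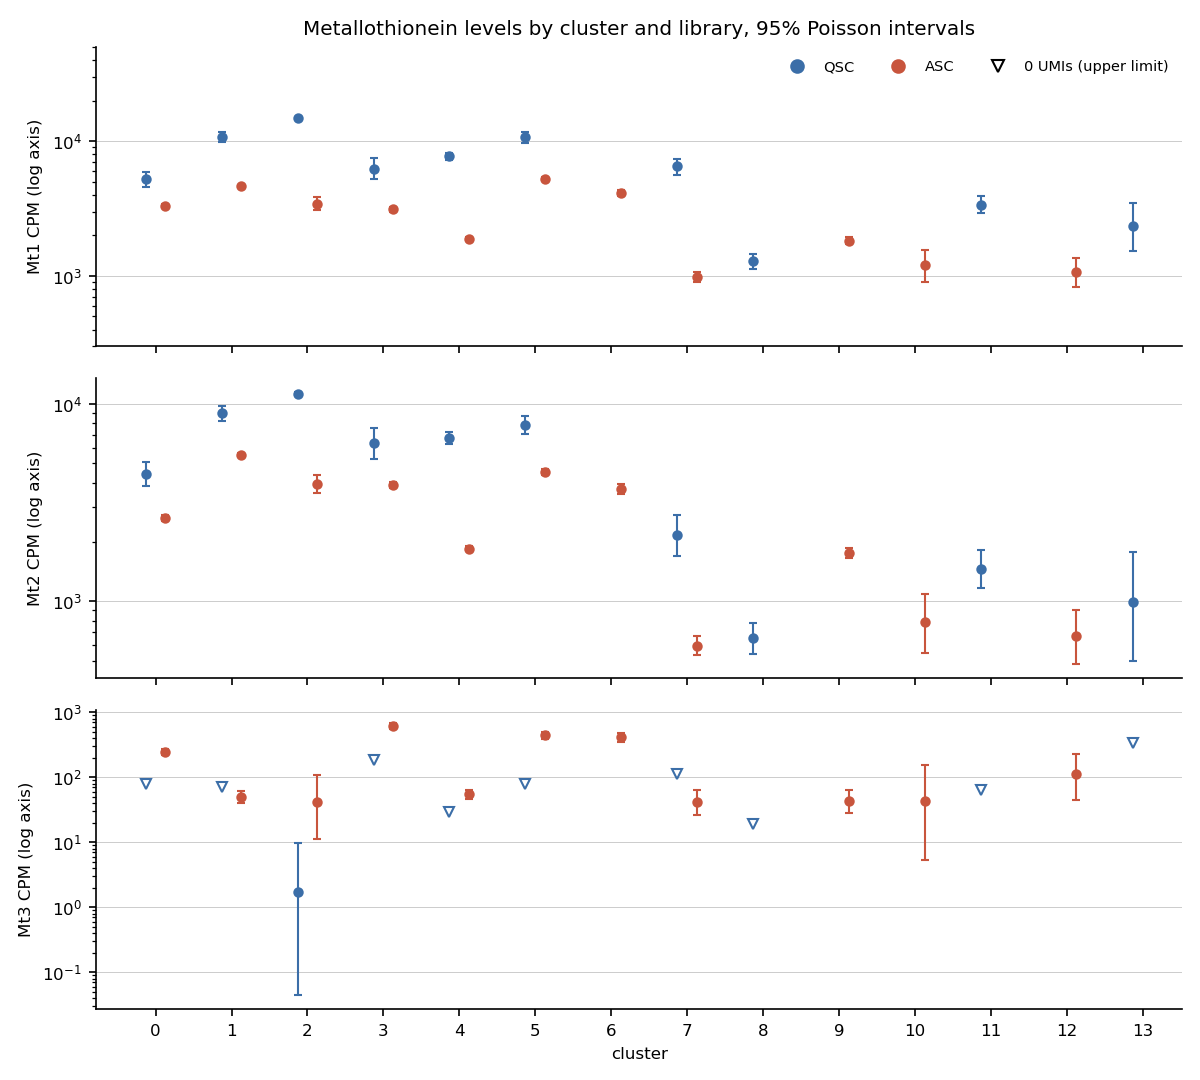
Mt1, Mt2 and Mt3 in CPM on a log axis by cluster, with QSC in blue and ASC in red, for cluster and library combinations with at least 9 barcodes. Bars are 95% Poisson intervals and open triangles upper limits where no UMI was counted. Mt1 and Mt2 peak in QSC cluster 2, at 14921 and 11235 CPM, and Mt3 in ASC cluster 3, at 613 CPM.

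Free RNA in the suspension gives every barcode some molecules of other cells, so the low Mt3 levels were set beside it. Macrophages serve as a cell type that should lack fibre transcripts, and the ASC macrophage-like barcodes took a median of 2.3% of UMIs from the 10 fibre genes, against 1.82% in fibre-low muscle barcodes. Per 10000 fibre-gene UMIs there were 26.2 Mt3 UMIs (24.7 to 27.7) in fibre-high, 23.5 (20.6 to 26.7) in fibre-low muscle and 17.1 (10.7 to 25.9) in macrophage-like barcodes. The Mt3 level of fibre-low muscle barcodes, at 44.5 CPM, was within the interval of macrophage-like cluster 7, so Mt3 in them could not be told from background. Mt1 behaved differently, with 270 UMIs per 10000 fibre-gene UMIs in fibre-high and 1425 in fibre-low muscle barcodes. Per 10000 fibre-gene UMIs, cluster 3 had 74 Mt3 UMIs (66.9 to 81.8), cluster 5 29.6 (26.2 to 33.2), cluster 6 32.5 (27.4 to 38.3) and cluster 0 14.4 (12.8 to 16). Free RNA of a single source keeps its genes in 1 ratio. Cluster 3 lay above and cluster 0 below the ratio of the whole fibre-high class, and the intervals of clusters 5 and 6 overlapped it.

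The share of barcodes with a UMI was compared after each barcode was thinned to 1200 UMIs, which left out 28 QSC and 97 ASC barcodes. Mt1 was found in 96.3% of QSC barcodes (exact binomial interval 94.2 to 97.8) and 85.3% of ASC barcodes (83.3 to 87.1), and Mt2 in 87.1% (83.8 to 89.9) and 81.4% (79.2 to 83.4). Without thinning the shares were 98.4% in QSCs and 96.3% in ASCs for Mt1, and for Mt2 the order turned, with 91.5% and 94.2%. Mt3 was found in 0 of 488 QSC barcodes, which allows a share of barcodes with a UMI of up to 0.615% at 3 counts and 0.753% by the exact binomial interval, and in 20.7% of ASC barcodes (18.6 to 23). Within ASCs the Mt3 share was 29.4% (26.4 to 32.6) in fibre-high, 6.39% (4.22 to 9.22) in fibre-low muscle and 1.23% (0.0313 to 6.69) in macrophage-like barcodes, whose median depths before thinning were 2666, 8444 and 6382 UMIs. Without thinning these were 44.7%, 34.2% and 21.7%. In 16 neutrophil-like barcodes the thinned share was 12.5% (1.55 to 38.3), from 2 barcodes.

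Barcodes varied widely in Mt1 and Mt2. In QSC fibre-low muscle barcodes Mt1 took a median of 1.07% of a barcode's UMIs, with 0.234% at the 10th and 2.55% at the 90th percentile and a maximum of 6.98%. Mt1 and Mt2 together reached 10.4% of the UMIs of 1 QSC barcode. In ASC fibre-low muscle barcodes the Mt1 median was 0.23% and the 90th percentile 1.01%, so the 90th percentile of ASCs lay just below the QSC median. After thinning, the variance of Mt1 over its mean was 9.77 in QSC and 7.72 in ASC fibre-low muscle barcodes and 6.14 in ASC fibre-high barcodes, against 1.08 in QSC fibre-high barcodes, where a value of 1 is what counting alone gives. Mt1 was thus spread more unevenly than counting alone gives in 3 of these sets. For uneven counts this value grows with the mean, which was 15.8, 5.12 and 4.66 UMIs in these sets and 1.71 in QSC fibre-high barcodes. The sets and genes are therefore not ranked by it. For Mt3 in ASC fibre-high barcodes the value was 2.05, at a mean of 0.503 UMIs. The 95 fibre-high ASC barcodes with the highest Mt3 counts held 53.3% of its UMIs and 15.4% of all UMIs of the class.

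Mt1 and Mt2 were high in the same barcodes. Over barcodes thinned to 1200 UMIs, Pearson's r of their counts was 0.62 in QSC fibre-low muscle (366 barcodes), 0.76 in ASC fibre-low muscle (407 barcodes) and 0.71 in ASC fibre-high barcodes (861 barcodes), with Spearman's rho of 0.67, 0.66 and 0.63. In QSC fibre-high barcodes, where both are low, r was 0.12 (90 barcodes). Mt3 followed them weakly in ASC fibre-high barcodes, with r of 0.06 with Mt1 and 0.18 with Mt2, and rho of 0.15 and 0.26. It had a mean of only 0.503 UMIs per thinned barcode there, and so few counts hold such values down. The barcodes of a set share a library and its free RNA, so these are descriptions of the libraries.

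The balance of Mt1 and Mt2 shifted slightly. Mt1 made up 57% (exact binomial interval 56.4 to 57.7) of the UMIs of the pair in QSCs and 49.7% (49.3 to 50.2) in ASCs. In fibre-low muscle barcodes the values were 56.4% (55.7 to 57.1) and 46.9% (46.3 to 47.5), and in fibre-high barcodes 67.1% (62.3 to 71.6) and 53% (52.3 to 53.6). Macrophage-like barcodes leaned more to Mt1, with 74.9% (69.4 to 79.9) in QSCs and 62.3% (58.9 to 65.6) in ASCs. The lowest share in a cluster with at least 20 barcodes of a library was in ASC cluster 3, the Mt3-rich cluster, at 44.5% (43 to 46), whose interval overlaps that of ASC cluster 1 at 45.7% (45 to 46.5).

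Which genes were most like each member was read from Spearman's rho of log2(CPM + 1) over 14 sums of a cluster in a library, each with at least 20 barcodes, among 5601 genes. For Mt1 these were Mt2 (0.97), then Hes1, a Notch target gene, Rora, a nuclear receptor of the circadian clock, Arvcf and Kifap3, all at 0.86, and N6amt1 (0.85). For Mt2 they were Mt1 (0.97), Kifap3 and Osr2 (0.88), Chpf and Hes1 (0.87) and Rora (0.86). The lists overlap, since the pair itself is nearly in step. For Mt3 they were Cgref1, Ciao2b and Stk39 (0.96), Strap and Psma1, a proteasome subunit gene (0.95), and Hax1 (0.94). Mt3 had a rho of 0.91 with Mt4, -0.18 with Mt1, -0.13 with Mt2 and 0.29 with Trim63. The 14 sums come from only 2 libraries, and Mt3 is at or near 0 in all the QSC sums, so any gene that is higher in ASCs scores well.

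To see what went with Mt3 among fibre-rich barcodes of 1 library, the 253 ASC fibre-high barcodes with an Mt3 UMI after thinning were set beside the 608 without. Their median depths were 2812 and 2910 UMIs and their median fibre shares 13.2% and 14.9%. Mt2 was higher with Mt3, at 4848 against 2995 CPM (log2 ratio 0.70, interval 0.60 to 0.79), and Mt1 less so, at 4489 against 3631 CPM (log2 ratio 0.31, interval 0.21 to 0.40). Mt4 had 14 UMIs against 8, a log2 ratio of 2.07 (0.72 to 3.53). The other metallothioneins were thus all higher in barcodes with Mt3. Among 2175 genes with at least 50 UMIs in both sets together, Mt2 ranked 120 and Mt1 only 569, and Mt4 had too few UMIs to be ranked. Mt1 and Mt2 had a variance over mean of 6.14 and 6.27 in this class, so intervals for counting error alone are too narrow for them.

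Among 2175 genes with at least 50 UMIs in both sets together, the highest ratios belonged to Lgals3, the gene of galectin-3, with a log2 ratio of 1.55 (1.11 to 1.98), and to Cgref1, at 1.47 (0.76 to 2.19). Pbdc1, Stk39, S100a10, Ankrd10, Eif3b, Tsc22d1, 2410006H16Rik and Btbd6 followed, between 1.36 and 1.15. Cgref1 and Stk39 were also among the genes most like Mt3 across clusters. Over all 2175 genes the interval lay above 0 for 13.5% and below 0 for 8.97%. Of the atrophy genes, 6 of 11 reached 50 UMIs, and 3 had an interval above 0 and none below. These were Trim63, at 646 against 345 CPM (log2 ratio 0.90, interval 0.63 to 1.18), Fbxo32, the gene of the ubiquitin ligase atrogin-1, at 0.86 (0.17 to 1.54), and Map1lc3b at 0.36 (0.13 to 0.59), while Fbxo31 was at 0.43, Gabarapl1 at 0.03 and Bnip3 at -0.48, with intervals that hold 0. Of the antioxidant (Nrf2) genes, 5 of 10 reached 50 UMIs, and 2 had an interval above 0 and none below, Srxn1, the sulfiredoxin gene, at 0.91 (0.40 to 1.41) and Gsr at 0.65 (0.06 to 1.22). Below that limit, Hmox1 was at -0.85 (-3.30 to 1.01) and Slc7a11 had 0 UMIs against 12. Of the 10 fibre genes, 6 had an interval below 0 and none above. Myh1, a fast myosin heavy chain gene, was the lowest, at -0.98 (-1.46 to -0.53), then Acta1 and Mylpf at -0.25, Tnni2 at -0.23, Tnnt3 at -0.16 and Tnnc2 at -0.11, and Myh4, Atp2a1, Pvalb and Ckm lay between 0.06 and -0.03.

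The 10 lowest genes fell into groups by their known roles. Tnnt1, Tnni1, Tnnc1, Myl2 and Myl3 encode slow-fibre and cardiac-type contractile proteins, with log2 ratios from -4.30 (-7.37 to -2.41) for Tnnt1 to -2.64 (-4.56 to -1.21) for Tnni1. Il1b, Ccl3, Ccl4 and Cxcl2 encode inflammatory cytokines and chemokines of immune cells, and Nfkbia the inhibitor of NF-kB. Cxcl2 had 18 UMIs with and 464 without Mt3, a log2 ratio of -3.42 (-4.19 to -2.75), and Il1b 0 against 96. The 6 neutrophil markers summed to 262 CPM (226 to 302) without and 95.5 CPM (64 to 137) with Mt3, with 3 and 2 of them having a UMI. Retnlg, Csf3r and Cxcr2 had no UMI in either set, and S100a9 had none with Mt3. In QSC fibre-high barcodes, from a library with 0 neutrophil-like barcodes, the sum was 103 CPM (64.3 to 155). The sum alone therefore does not mark neutrophils. The 11 macrophage markers summed to 223 and 227 CPM. What part other cells in the droplets had in these ratios was not tested.

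**Figure D4:**
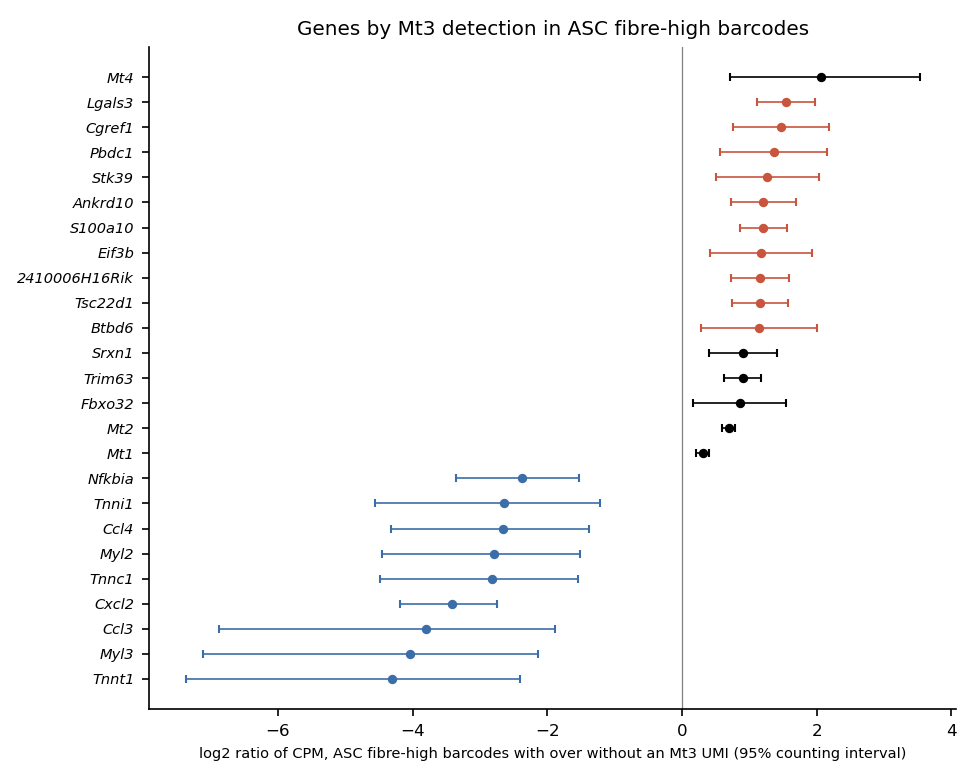
Log2 ratio of CPM in ASC fibre-high barcodes with over those without an Mt3 UMI, after thinning to 1200 UMIs, with 95% counting intervals. Red and blue points are the 10 highest and the 10 lowest genes except Il1b, which had 0 UMIs with Mt3, and black points are metallothioneins and 3 genes of the lists. Slow-fibre and cytokine genes lie at the low end, down to -4.30.

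The other genes of metal handling were read from lists. Of features with at least 20 UMIs, 16.0% were at least 2-fold higher and 23.0% at least 2-fold lower in ASCs over all kept barcodes, with a median log2 ratio of -0.10. In fibre-low muscle barcodes these shares were 18.6% and 22.4%, and in fibre-high barcodes 18.8% and 8.92%. Of the 4 metallothioneins, 2 were higher and 2 lower over all kept barcodes, and this is what the choice of the members used.

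In fibre-low muscle barcodes, 6 genes of MTF-1 and its known targets could be read, and 1 was lower by 2-fold, with a list median of -0.45 against -0.07 for all features. It was Ndrg1, which is also a hypoxia-induced gene, at 102 CPM in QSCs and 20.9 CPM in ASCs, a log2 ratio of -2.28 (-2.70 to -1.85) next to -2.26 for Mt1. The factor itself, Mtf1, had 11 UMIs in QSCs and 67 in ASCs, a log2 ratio of -0.03 (-0.96 to 1.04). Slc30a1, the zinc exporter of the cell surface and an MTF-1 target, had 8 and 27 UMIs, a log2 ratio of -0.88 (-2.06 to 0.47). Both intervals hold 0, and that of Slc30a1 also holds the value of Mt2, -1.71.

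Of the zinc exporters (Slc30), 6 of 10 could be read and 0 passed 2-fold in either direction, with a median of -0.45. Of the zinc importers (Slc39), 9 of 14 could be read and 1 was lower by 2-fold, Slc39a3 at -1.69 (-2.67 to -0.64), with a median of -0.56. Slc39a14, an importer that is induced by cytokines, was at 56.7 CPM in QSCs and 38.4 CPM in ASCs, a log2 ratio of -0.56 (-1.02 to -0.08), and Slc39a1 at -0.57 (-0.87 to -0.26). The copper genes had a median of 0.02, with 2 of 8 lower and none higher by 2-fold, and the exporter Atp7a at -1.52 (-2.36 to -0.63). Most genes of these lists were thus within 2-fold. The genes lower by 2-fold were 1 of 6, 0 of 6, 1 of 9 and 2 of 8 in the 4 lists, beside 22.4% of all features in this class. With so few genes, these counts do not stand out from that share.

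More genes were lower in the lists tied to glucocorticoids and cytokines, signals that are known to switch on Mt1 and Mt2. Of 8 glucocorticoid-responsive genes, 7 were lower by 2-fold in ASC fibre-low muscle barcodes and none higher, with a list median of -2.41, beside 22.4% of all features lower. Zbtb16 was at 141 CPM in QSCs and 3.81 CPM in ASCs, a log2 ratio of -5.21 (-5.97 to -4.52), and the clock gene Per1 at -3.59 (-4.27 to -2.93). Klf9 was at 1057 and 162 CPM, a log2 ratio of -2.70 (-2.84 to -2.56), and the receptor gene Nr3c1 at -2.35 (-2.78 to -1.91). Sgk1 was the exception, at -0.40 (-0.61 to -0.18).

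Of the IL-6 and STAT3 genes, 4 of 7 were lower by 2-fold and none higher, beside 22.4% of all features lower and 18.6% higher. The median was -1.50 against -0.07 for all features. Cebpb was at 3052 CPM in QSCs and 273 CPM in ASCs, a log2 ratio of -3.48 (-3.58 to -3.39), Cebpd at -2.14 (-2.22 to -2.05) and Socs3, the feedback inhibitor of cytokine signalling, at -2.41 (-2.52 to -2.30). Stat3 was at -0.86 (-1.19 to -0.53). Cebpb, Cebpd and Socs3 were thus higher in the same library and class as Mt1 and Mt2. Whether glucocorticoid or cytokine signals bear on the levels of Mt1 and Mt2 was not tested.

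In fibre-high barcodes, where Mt1 and Mt2 were higher in ASCs, the glucocorticoid list had 0 of 7 genes higher and 2 lower by 2-fold. Beside these counts, 18.8% of all features were higher and 8.92% lower. The list median was -0.86 against 0.10 for all features, and 4 of the 7 genes had 20 UMIs in QSCs. Ddit4 was the lowest, at -4.59 (-5.70 to -3.54). The ASC library has 14.2 times the UMIs of the QSC library in this class, so a gene can reach 20 UMIs through ASCs alone. That holds for all 8 antioxidant (Nrf2) genes that passed, 6 of which were higher by 2-fold, so no share of this list is read against the 18.8% of all features. Srxn1 was at 14 CPM in QSCs and 134 CPM in ASCs, a log2 ratio of 3.26 (1.70 to 5.54), Gclm, a subunit of the enzyme that makes glutathione, at 2.04 (0.47 to 4.34), and Gsr, glutathione reductase, at 1.71 (0.57 to 3.17). The QSC counts behind these ratios were 3, 3 and 6 UMIs, so the intervals are wide, and that of Hmox1, with 1 QSC UMI, holds 0 (-0.79 to 7.09). In fibre-low muscle barcodes 2 of 9 genes of this list were higher, 1 of these with 20 UMIs in QSCs, and 1 was lower, with a median of 0.61. The shares of all features there were 18.6% higher and 22.4% lower.

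Of the hypoxia genes, 1 of the 6 that passed in fibre-high barcodes had 20 UMIs in QSCs, Bnip3 at -0.90 (-1.28 to -0.49). Of 11 in fibre-low muscle barcodes, 5 had 20 UMIs in QSCs. There 2 of the 11 were higher, 0 of these with 20 UMIs in QSCs, and 5 were lower, with a median of -0.58. Beside them, 18.6% of all features were higher and 22.4% lower, so the higher genes are not read against that share. Of the atrophy genes, 10 passed in fibre-high barcodes, 4 of them with 20 UMIs in QSCs. Trim63 was at 541 CPM in QSCs and 442 CPM in ASCs there, a log2 ratio of -0.29 (-0.57 to -0.01), and Fbxo32 at -1.25 (-1.76 to -0.69). The other 2 with 20 QSC UMIs were Map1lc3b, at 0.44 (0.16 to 0.74), and Bnip3, at -0.90. Gabarapl1, with 8 QSC UMIs, was at 1.04 (0.04 to 2.27). The list median was -0.17 against 0.10 for all features. Mt1 and Mt2 were thus higher in ASC fibre-high barcodes, while the atrophy genes went both ways.

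**Figure D5:**
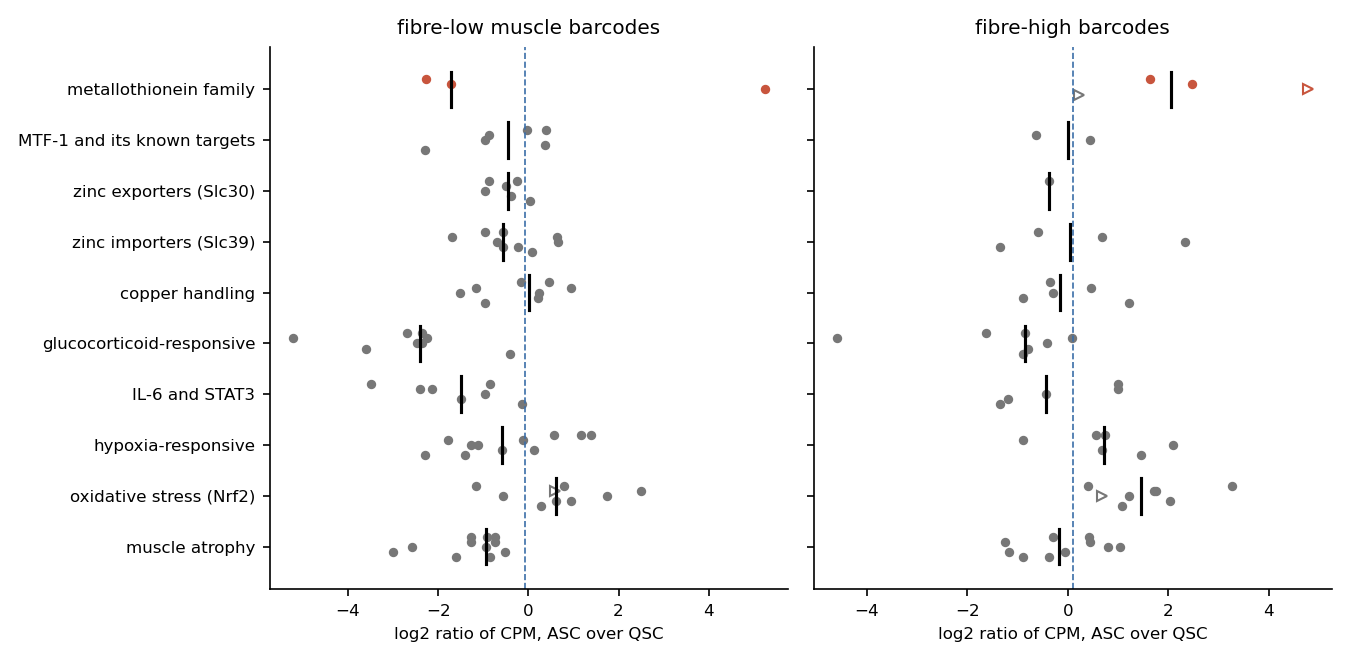
Log2 ratio of CPM, ASC over QSC, for each gene of the lists with at least 20 UMIs, in fibre-low muscle (left) and fibre-high (right) barcodes. Red points are Mt1, Mt2 and Mt3, grey points other genes, open triangles lower bounds where QSCs had 0 UMIs, black bars list medians and the dashed line the median of all features. The glucocorticoid list lies lowest in fibre-low muscle barcodes, with a median of -2.41. In fibre-high barcodes the antioxidant genes passed through the deeper ASC library alone.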

How the data were processed

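Single-cell 3' libraries (v2 chemistry) of FACS-sorted QSCs and ASCs were analysed, 1 per group. The deposited values are counts: whole numbers of UMIs per gene and barcode, which the authors made with Cell Ranger, release 6.0.2 per the file headers and 7.1.0 per the labels, with mm10 named as the build. The submitters' notes also name Seurat 4.1.0 and R 4.1.2. The handling of strand and of reads with several matches is not given in the sources used here.

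Barcodes with at least 500 genes and at most 10% mitochondrial UMIs were kept. UMIs were summed per library and class and scaled to CPM, with exact Poisson 95% intervals. Ratios have exact conditional binomial and shares exact Clopper-Pearson intervals, all for counting error only. With 1 library per group no test was run. For a bound, 3 counts stood in for 0, a bound short of any difference counted as none, and genes needed 20 UMIs to be counted past 2-fold. Clustering used Seurat 5.3.0 (R 4.3.3) and the study's settings (mean between 0.1 and 6 and dispersion between 0.5 and 15 for variable genes, 10 components, resolution 0.6) without the 4 metallothionein genes, and clusters were named from marker lists. Sums and intervals were computed in Python 3.11.15 with scipy 1.17.1 and tested on simulated data.

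The members, marker lists and gene lists were chosen with earlier results of these data known. The genes named are the family, genes of the lists, chromosome neighbours, the 6 genes most like each member, and the 10 highest and 10 lowest genes by Mt3 detection. Gene positions are from GENCODE M21. The alternatives changed the mitochondrial and gene limits, the fibre limit, the scaling (TMM, or a total without fibre and mitochondrial genes), the thinning, and the deepest barcodes.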

Additional observations from a re-analysis of the deposited data

Results flagged for a closer look

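Mt1 and Mt2 had opposite signs in the 2 classes of muscle barcodes. The log2 ratio of ASC over QSC for Mt1 was 1.63 in fibre-high and -2.26 in fibre-low muscle barcodes, and for Mt2 it was 2.48 and -1.71. With 1 library per group the difference between the classes was not tested. Mt3 was also seen in ASC barcodes that the filter left out for having under 500 genes, at 219 CPM (143 to 321, 26 UMIs in 163 barcodes), against 5.79 CPM (1 UMI in 246 barcodes) in the QSC library. In barcodes left out for over 10% of mitochondrial UMIs the order was the other way, with 269 CPM (55.5 to 787, 3 UMIs, all in 1 of 4 barcodes) in QSCs and 133 CPM (48.7 to 289, 6 UMIs in 19 barcodes) in ASCs, and these intervals overlap.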

How the results depend on the processing

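The mitochondrial limit of 1% turned the ratios over all kept barcodes to 1.43 for Mt1 and 2.12 for Mt2 and gave a bound of 4.34 for Mt3. This limit left out most fibre-low muscle barcodes of the QSC library. Mt3, at 7.56 as reported, was 5.46 with every deposited barcode, 6.41 with at least 1000 genes, 7.06 with a 5% mitochondrial limit and at least 5.78 without the 1% of barcodes highest in it. The fibre limit of 2% turned the fibre-high ratios to -0.76 for Mt1 and -0.41 for Mt2. The other shifts kept their sign. Over all kept barcodes, Mt1 was -1.60 with a 5% mitochondrial limit, -1.56 with every deposited barcode, -1.42 with TMM scaling and -1.58 without the 5% deepest barcodes. Mt2 was -1.12, -1.12, -0.99 and -1.17 under these, and -1.37 with at least 1000 genes. In fibre-low muscle barcodes Mt1 was -2.20 with a fibre limit of 10%, -2.32 with a 5% mitochondrial limit, -2.30 with fibre and mitochondrial genes out of the total and -1.89 without the deepest barcodes. Mt2 was -1.65 with the 10% limit, -1.75 with the smaller total and -1.29 without the deepest barcodes. Of 54 values under alternatives, 33 stayed within counting error, and the cause of the others was not tested. No paired analysis was possible because each group has 1 library and no result comes from a test. Depth limits Mt3 in QSCs, where 3 counts are 2.58 CPM, or 14 CPM in fibre-high barcodes.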
